A study of Homo sapiens with 2 samples.

Results

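7 genes set and reset the phosphorylation of the translation factor eIF2alpha: the kinase genes EIF2AK1, EIF2AK2, EIF2AK3 and EIF2AK4, the substrate gene EIF2S1, and the phosphatase cofactor genes PPP1R15A and PPP1R15B. They were taken by name from the deposited table, where all 7 were found among 21115 genes. Their RNA was measured in HCT116, an established line of human colorectal carcinoma cells, after 8 h with DMSO, the solvent, or with 1 µM CB-5083, an inhibitor of the ATPase p97 (VCP) that extracts ubiquitinated proteins for degradation by the proteasome. Each treatment was 1 library of polyadenylated RNA, so no difference has a replicate check, no test between treatments was possible, and every interval covers counting error only. Neither phosphorylation nor protein was measured.

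eIF2 carries the initiator tRNA to the ribosome. Each of the 4 kinases responds to another stress and phosphorylates the alpha subunit at the same serine, which blocks the exchange factor eIF2B, lowers general translation and favours a few messages such as that of ATF4. EIF2AK1 encodes HRI, which senses haem and mitochondrial stress, EIF2AK2 encodes PKR, which binds double-stranded RNA, EIF2AK3 encodes PERK, which spans the membrane of the endoplasmic reticulum (ER) and senses unfolded proteins there, and EIF2AK4 encodes GCN2, which senses amino acid shortage through uncharged tRNA. PPP1R15A (GADD34) and PPP1R15B (CReP) each bring protein phosphatase 1 to eIF2alpha to remove the phosphate. PPP1R15A is the stress-induced cofactor and PPP1R15B the constitutive one.

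2 of the 7 genes, EIF2AK3 and PPP1R15A, were at least 2-fold higher with CB-5083, none was at least 2-fold lower, and the other 5 lay between 1.27-fold lower and 1.49-fold higher. The rule for a call was a log2 ratio of at least 1 in size and a level of at least 5 CPM in 1 library or both, CPM being a gene's counts relative to all counts of its library after TMM scaling. All 7 passed that filter in both libraries. Of the 9543 genes that passed it, 7.22% were higher and 4.91% lower by the same rule. The median log2 ratio of the 7 was 0.37, beside 0.09 for all genes that passed.

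The sequences before the starts of the 2 genes that passed the threshold are shown because they are where factors induced by ER stress and by ATF4 are known to bind in many genes. RefSeq starts were listed for 6 of the 7 genes (not EIF2AK1). The 250 bases before each start are given 5′ to 3′ on the gene's strand in GRCh38.p14, EIF2AK3 at chr2:88627465-88627714 on the minus strand and PPP1R15A at chr19:48872171-48872420 on the plus strand. Capitals mark CCAAT on either strand in EIF2AK3 and the palindrome TGACGTCA, the cyclic AMP response element, in PPP1R15A.
EIF2AK3: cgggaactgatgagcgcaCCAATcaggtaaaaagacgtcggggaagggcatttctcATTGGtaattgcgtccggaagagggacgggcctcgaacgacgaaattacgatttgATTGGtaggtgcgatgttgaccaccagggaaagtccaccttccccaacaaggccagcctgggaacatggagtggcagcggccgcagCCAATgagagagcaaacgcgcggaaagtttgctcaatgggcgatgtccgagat
PPP1R15A: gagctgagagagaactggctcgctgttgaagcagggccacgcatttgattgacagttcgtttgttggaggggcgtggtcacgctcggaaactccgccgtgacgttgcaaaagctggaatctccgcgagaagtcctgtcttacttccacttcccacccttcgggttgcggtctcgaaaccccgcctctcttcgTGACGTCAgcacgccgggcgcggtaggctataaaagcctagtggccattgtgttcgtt

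EIF2AK3 held CCAAT 4 times, at 232 to 228 and 53 to 49 bases before the start on its own strand and at 194 to 190 and 139 to 135 on the other. At least 4 matches on both strands together were found in 0.874% of 35116 windows of this length before RefSeq gene starts. At least 1 was found in 32.01%. The cut-off of 4 is the number that EIF2AK3 itself held. PPP1R15A held TGACGTCA at 58 to 51 bases before its start, a motif found in 1.65% of the windows. The ER stress response element is a CCAAT box and, after a gap of 9 bases, the letters CCACG, so that each match to it is also a match to CCAAT. No window of the 6 genes held it on either strand, and it was found in 0.0740% of all windows. TGACGTG, bound by factors of the unfolded protein response, was found in none of the 6 and in 1.68% of all. The motif TGATGNAAT, of the kind bound by ATF4 with a partner, was likewise found in none of the 6, and in 0.889% of all. The search required the final T, and the window of PPP1R15B held TGATGCAAC, which lacks it. Windows with such near matches were not counted. EIF2AK2 held 2 matches to CCAAT and PPP1R15B 1, while EIF2AK4 and EIF2S1 held none of the motifs searched. A match is a run of letters, and binding was not measured.

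EIF2AK3, on chromosome 2 from 88856259 to 88927094 in hg19 and with 17 exons, was at 21.7 CPM with DMSO (95% exact Poisson interval 20.1 to 23.4) and at 149 CPM with CB-5083 (145 to 154), from 715 and 4242 estimated counts. Among the genes that passed the filter, this moved its level from percentile 38.1 to percentile 83.6. The fold was 6.88 (95% exact counting interval 6.35 to 7.46) and the log2 ratio 2.73, which ranked 49 of 9543. Of 404 genes that passed the filter and whose deposited description names a kinase, a set put together after the values were seen, EIF2AK3 had the highest log2 ratio with the pseudocount of 1 CPM. ROCK1P1, a pseudogene whose reads may be shared with ROCK1 and the next at 2.35, was at 0.805 and 8.22 CPM, so that its fold without a pseudocount was larger than that of EIF2AK3. In that set 31 genes were higher and 14 lower, with a median log2 ratio of 0.10.

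EIF2AK2, on chromosome 2 from 37332284 to 37384190, had 56.1 CPM in the DMSO library and 83.4 CPM in the CB-5083 library. The PKR gene was 1.49-fold higher (1.40 to 1.58). EIF2AK1, on chromosome 7 from 6061878 to 6098860, was the most abundant kinase message, at 232 and 224 CPM. Its HRI transcript was 1.04-fold lower (1.00 to 1.07), a difference at the edge of the counting interval. EIF2AK4, on chromosome 15 from 40226347 to 40327797 and the longest of the 7 with 39 exons, had 90.0 CPM in the DMSO library and 71.1 CPM in the other. The GCN2 transcript was thus 1.27-fold lower (1.196 to 1.34), the lowest ratio of the 7 genes.

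EIF2S1, on chromosome 14 from 67827034 to 67853233, encodes the common substrate. It was the most abundant of the 7 messages in both libraries, at 379 CPM in the DMSO library and 490 CPM in the CB-5083 library, or 1.29-fold higher (1.26 to 1.32). Its level lay at percentile 96.4 of the genes that passed the filter with DMSO and 96.3 with CB-5083.

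PPP1R15A, on chromosome 19 from 49375649 to 49379319 and with 3 exons, was at 8.38 CPM with DMSO (7.42 to 9.42) and at 155 CPM with CB-5083 (150 to 159), from 276 and 4398 estimated counts. It went from the least abundant of the 7, at percentile 14.3 of the genes that passed, to percentile 84.2. The fold was 18.5 (16.4 to 20.9), and its log2 ratio of 4.05 (pseudocount 1 CPM) ranked 6 of 9543. PPP1R15B, on chromosome 1 from 204372492 to 204380944 and with 2 exons, had 193 CPM in the DMSO library and 209 CPM in the other. The constitutive cofactor was thus 1.09-fold higher (1.05 to 1.13) and lay near the middle of all genes, at percentile 51.8 of the log2 ratios.

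**Figure D1:**
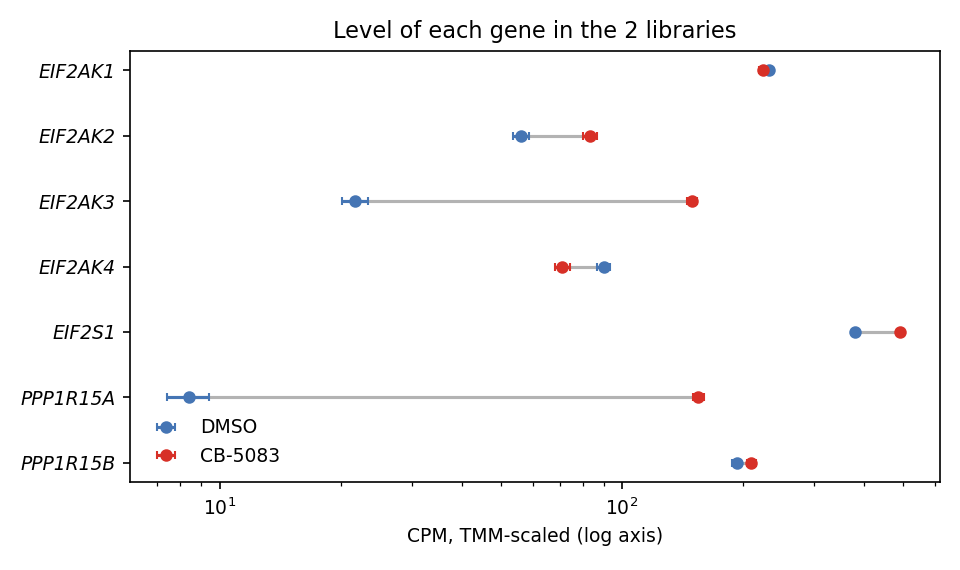
Level of each of the 7 genes in the DMSO library (blue) and the CB-5083 library (red), in TMM-scaled CPM on a log axis, with 95% exact Poisson intervals for counting error. EIF2AK3 goes from 21.7 to 149 CPM and PPP1R15A from 8.38 to 155 CPM, while the points of the other 5 genes lie close together.

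**Figure D2:**
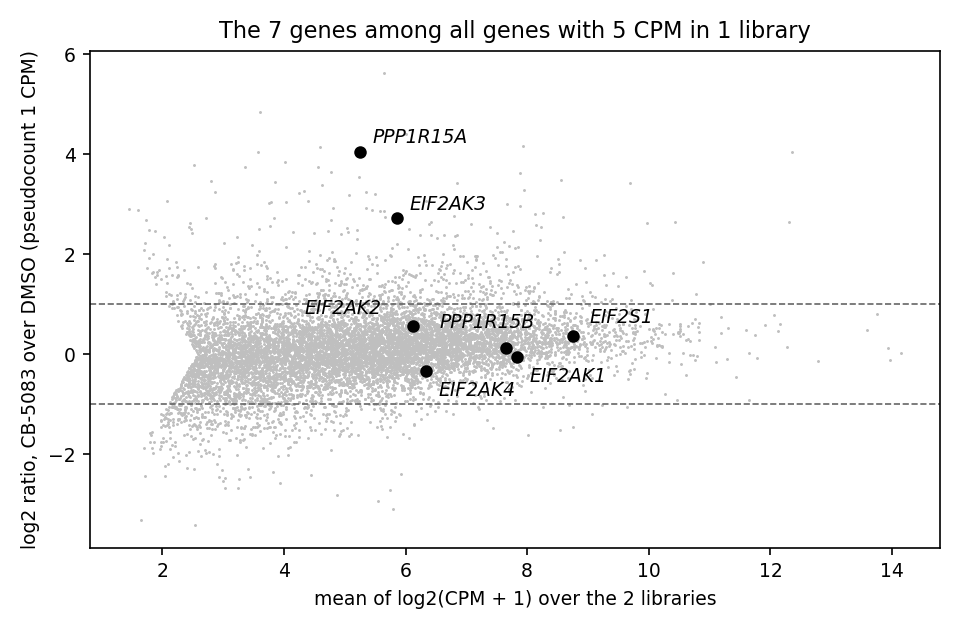
Log2 ratio of CB-5083 over DMSO (pseudocount 1 CPM) against the mean level, as log2(CPM + 1), for the 9543 genes with at least 5 CPM in 1 library (grey) and the 7 genes (black). Dashed lines mark a 2-fold difference, and EIF2AK3 and PPP1R15A are the only black points past them.

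The ratio of 2 genes' folds does not depend on how the libraries are scaled, and was computed after the values were seen. The fold of EIF2AK3 was 7.12 times that of EIF2AK1 (95% exact conditional interval 6.53 to 7.77), 4.63 times that of EIF2AK2 (4.19 to 5.13) and 8.71 times that of EIF2AK4 (7.89 to 9.61). PERK thus stood apart from each of the other kinase genes by more than counting error. EIF2AK2 stood apart from EIF2AK4 by less, with a ratio of folds of 1.88 (1.73 to 2.05). The fold of PPP1R15A was 17.0 times that of PPP1R15B (15.0 to 19.4) and 2.69 times that of EIF2AK3 (2.32 to 3.12).

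Levels of different genes were compared as CPM per kilobase of transcript. With DMSO the order was EIF2S1 at 84.6 CPM per kb, EIF2AK1 at 52.0, PPP1R15B at 36.8, EIF2AK2 at 19.1, EIF2AK4 at 16.4, EIF2AK3 at 4.67 and PPP1R15A at 3.52. PERK and GADD34, the 2 lowest, were thus the 2 that differed most between treatments. With CB-5083 the order was EIF2S1 at 109 CPM per kb, PPP1R15A at 65.1, EIF2AK1 at 50.2, PPP1R15B at 40.0, EIF2AK3 at 32.1, EIF2AK2 at 28.4 and EIF2AK4 at 12.9. Neighbours in either order did not overlap in their counting intervals, as for EIF2AK3 (4.33 to 5.03) and PPP1R15A (3.12 to 3.96) with DMSO and EIF2AK3 (31.2 to 33.1) and EIF2AK2 (27.2 to 29.6) with CB-5083, but the spread between cultures is unknown. The place of EIF2AK2 rests on transcript length: with its longest annotated transcript of 10042 bases in place of the mean of 2938 bases over the 2 matched RefSeq transcripts, it was at 5.59 and 8.30 CPM per kb.

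Of the summed per-length level of the 4 kinase genes, EIF2AK3 made up 5.07% with DMSO and 26.0% with CB-5083. The share of EIF2AK1 was 56.4% and 40.6%, that of EIF2AK2 20.8% and 22.9%, and that of EIF2AK4 17.8% and 10.5%. HRI thus remained the most abundant kinase message, while PERK went from the fourth place to the second. In unadjusted counts the share of EIF2AK3 was 5.42% of 13183 (exact Clopper-Pearson interval 5.04 to 5.82) and 28.3% of 15011 (27.5 to 28.99). With TMM scaling the summed level went from 92.1 to 124 CPM per kb, a fold of 1.34. Unlike the shares, this fold depends on the scaling between libraries and is lower with library totals. The median log2 ratio of the 4 kinase genes was 0.26, and -0.08 with library totals.

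Among the 2 cofactors the order of abundance turned per length, though not in unadjusted counts. Of these, PPP1R15B held 95.8% of 6622 with DMSO and 57.5% of 10344 with CB-5083 (exact Clopper-Pearson interval 56.5 to 58.4). PPP1R15B was at 10.5 times the per-length level of PPP1R15A with DMSO, and PPP1R15A at 1.63 times that of PPP1R15B with CB-5083. PPP1R15A made up 8.73% and 61.9% of their sum. With TMM scaling that sum went from 40.4 to 105 CPM per kb, a fold of 2.60 that is lower with library totals.

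**Figure D3:**
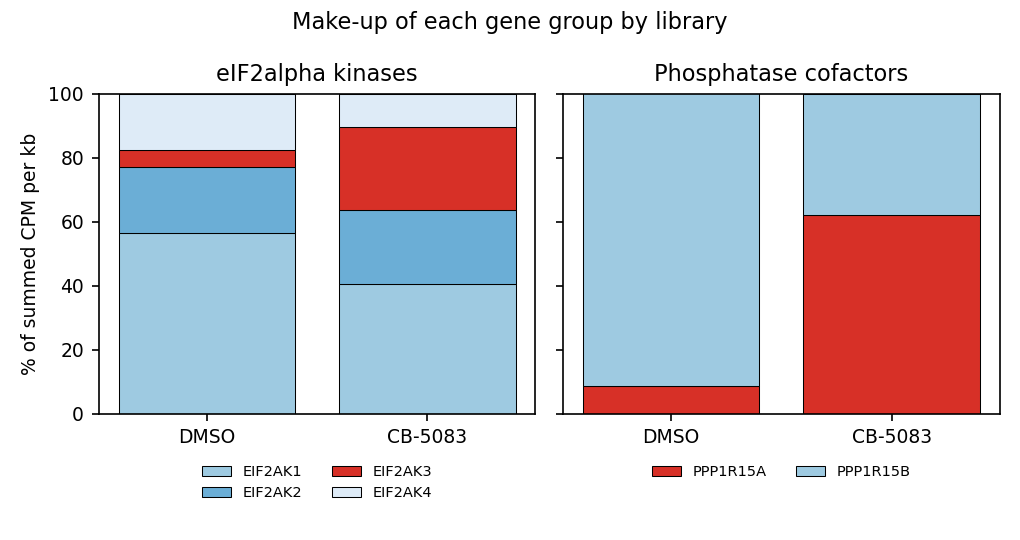
Share of each gene in the summed CPM per kb of the 4 kinase genes (left) and of the 2 cofactor genes (right) in each library, as stacked bars in percent. EIF2AK3 (red, left) makes up 5.07% with DMSO and 26.0% with CB-5083, and PPP1R15A (red, right) 8.73% and 61.9%.

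The small differences moved with the scaling between libraries, and that of PPP1R15B changed direction. Scaling by library totals moved the median log2 ratio of all genes by -0.33. PPP1R15B went from a log2 ratio of 0.12 to -0.22, and EIF2S1 from 0.37 to 0.03. EIF2AK3 was at 2.39 and PPP1R15A at 3.73 with library totals, both past the threshold, and EIF2AK1 and EIF2AK4 were below 0 under all 4 scalings and in the authors' deposited table. EIF2AK2 and EIF2S1 were above 0 in all 5, and the direction of PPP1R15B alone turned.

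**Figure D4:**
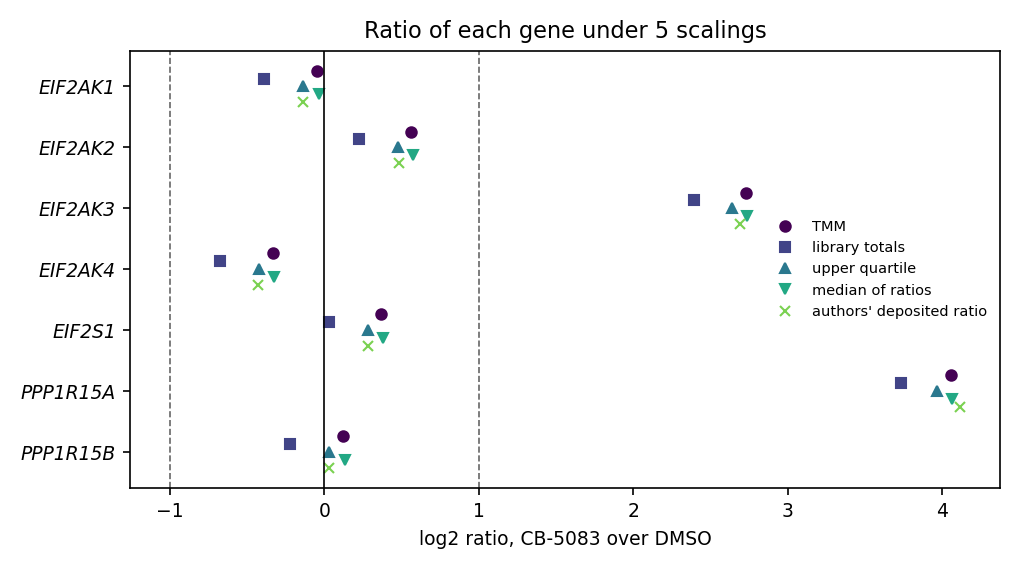
Log2 ratio of each gene under TMM, library totals, upper quartile and median-of-ratios scaling (pseudocount 1 CPM) and in the authors' deposited table (no pseudocount). Dashed lines mark a 2-fold difference. Library totals (squares) give the lowest value for each gene, and the ratio of PPP1R15B is -0.22 with them and above 0 otherwise.

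Regulators of the kinases were taken next. Of 12 listed regulators 11 passed the filter, 2 were higher and none lower, with a median log2 ratio of 0.30, or -0.03 with library totals. Both belong to the ER side: HSPA5 (BiP), the lumenal chaperone that holds PERK inactive, was at 1282 and 21303 CPM, and DNAJC3 (p58IPK), an ER cochaperone first known as an inhibitor of PKR, was at 114 and 687 CPM, or 6.01-fold higher (5.81 to 6.23). ZAK, the kinase of the ribotoxic stress response, was just short of the threshold at 101 and 197 CPM (log2 ratio 0.96), and NCK1, an adaptor that binds the phosphatase at the ER, was at 41.3 and 75.2 CPM. Of the genes around GCN2, GCN1L1, its coactivator on the ribosome, was at 81.5 and 79.3 CPM, and IMPACT, its inhibitor, at 83.6 and 118 CPM. PRKRA, an activator of PKR, was at 67.8 and 76.8 CPM.

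Of 13 other genes of eIF2, its exchange factor eIF2B and their partners, all of which passed the filter, 2 were higher and none lower, with a median log2 ratio of 0.27. EIF2S2, the beta subunit of eIF2, was at 337 and 706 CPM (2.09-fold higher, 2.05 to 2.14), and EIF5, which makes eIF2 hydrolyse GTP, at 574 and 1223 CPM (2.13-fold, 2.09 to 2.17). With library totals neither reached 2-fold, and the median was -0.07. EIF2S2 was also just short of the threshold with upper quartile scaling (log2 ratio 0.97) and in the authors' deposited table (0.98). EIF2B4 and EIF2B5, subunits of eIF2B that belong to its regulatory and catalytic parts, were at 23.6 and 23.1 CPM and at 41.5 and 35.4 CPM, so that neither approached the threshold.

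Of the other protein phosphatase 1 genes, taken as every row whose name starts with PPP1R or PPP1C beside the 2 cofactors (3 catalytic subunits included), 20 of 39 passed the filter, 1 was higher, 2 were lower and 17 neither. Their median log2 ratio was 0.08, and -0.25 with library totals, where 3 were lower. The third was PPP1R26, at 9.86 and 4.89 CPM. It was 2.02-fold lower (1.65 to 2.48) without a pseudocount, but its log2 ratio with the pseudocount of 1 CPM was -0.88. PPP1R3B, which directs the phosphatase to glycogen, was the one higher, at 16.8 and 36.1 CPM (2.15-fold, 1.94 to 2.39). It did not pass the threshold with library totals (log2 ratio 0.73) or upper quartile scaling (0.97). PPP1R10, a nuclear subunit, was at 58.2 and 18.1 CPM (3.21-fold lower, 2.91 to 3.55), and PPP1R9B (spinophilin) at 26.1 and 11.2 CPM (2.33-fold lower, 2.04 to 2.65). The catalytic subunits PPP1CA, PPP1CB and PPP1CC stayed within 2-fold, at 35.1 and 39.2, 394 and 634, and 707 and 704 CPM.

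Downstream of eIF2alpha, 18 of 20 listed targets of the integrated stress response passed the filter, of which 17 were higher, none was lower and the median log2 ratio was 2.15, or 14 higher with library totals. ATF5, named here after its value was seen, was the one that stayed within 2-fold, at 8.19 and 8.02 CPM. PPP1R15A, itself a target of this response, had a log2 ratio of 4.05 that was exceeded in the list by DDIT3, the gene of the transcription factor CHOP, at 5.62 and by the transcription factor gene ATF3 at 4.41. CHAC1, a glutathione-degrading enzyme named here after its value was seen, was at 0.303 and 7.39 CPM, and its log2 ratio also exceeded that of PPP1R15A with a pseudocount of 0.1 CPM (4.21 against 4.19). ATF4, whose message is favoured when eIF2alpha is phosphorylated, was at 237 and 498 CPM (log2 ratio 1.07, and 0.73 by library totals). It was also just short of the threshold with upper quartile scaling and in the authors' deposited table (0.98 in both).

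EIF2AK3 had a higher ratio than any other sensor or factor on the list of the unfolded protein response. Of 10 listed genes 8 passed the filter, 5 were higher and none lower, with a median log2 ratio of 1.38, or 3 higher and 0.92 with library totals. ERN1, which encodes the sensor IRE1, was at 1.03 and 5.24 CPM, a log2 ratio of 1.62. Without a pseudocount its fold was 5.08 (3.48 to 7.61), an interval that includes the 6.88-fold of EIF2AK3. ATF6, the third sensor gene, was at 80.8 and 195 CPM, a log2 ratio of 1.26. CREB3L2, a membrane-bound transcription factor, had a log2 ratio of 1.97, against 2.73 for EIF2AK3. With a pseudocount of 0.1 CPM the log2 ratio of ERN1 was 2.24 and that of CREB3L2 1.99, so that their order depends on the pseudocount.

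Interferon-stimulated genes and genes of haem synthesis and breakdown gave no common direction. Their RNA does not measure the activity of PKR or HRI, which was not tested. PKR is itself induced by interferon, and of 21 interferon-stimulated genes 6 passed the filter, none was higher and 2 were lower. OAS3, a synthase of the RNase L pathway, was at 46.9 and 20.9 CPM and IFIH1, the RNA sensor MDA5, at 7.80 and 3.06 CPM, while STAT2 was at 22.1 and 45.1 CPM, a log2 ratio of 0.998 that passed the threshold with median-of-ratios scaling or a pseudocount of 0.1 CPM. The median log2 ratio of the 6 was 0.22, and -0.36 with library totals. Of 12 genes of haem synthesis and breakdown 11 passed, 2 were higher and 2 lower. ALAS1, the first and rate-limiting enzyme, was at 34.1 and 77.2 CPM and the haem oxygenase gene HMOX1 at 5.28 and 13.1 CPM, whereas CPOX, a late enzyme of the pathway, was at 633 and 219 CPM (2.88-fold lower, 2.80 to 2.97) and ALAD, the second enzyme, at 12.6 and 4.82 CPM. With library totals neither ALAS1 nor HMOX1 reached 2-fold and 3 members of the list were lower.

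**Figure D5:**
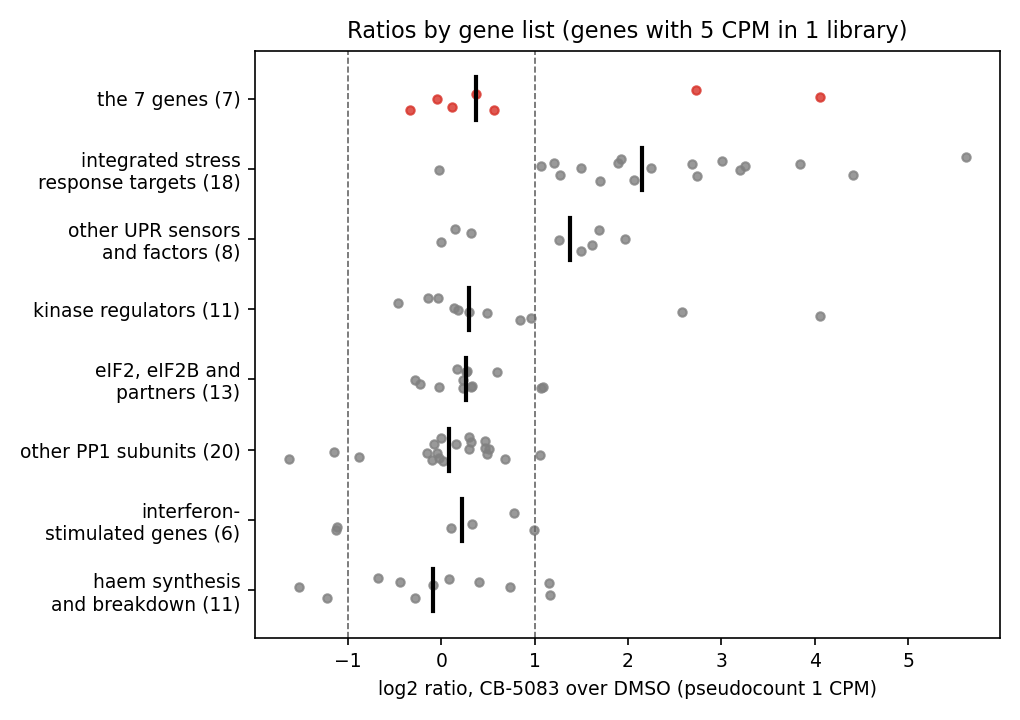
Log2 ratio of CB-5083 over DMSO (pseudocount 1 CPM) for each gene that passed the filter, by list, with the number of genes in parentheses. Black bars are medians and dashed lines mark a 2-fold difference. The targets of the integrated stress response have the highest median, 2.15, while 5 of the 7 genes in the top row lie between the dashed lines.

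The genes nearest to EIF2AK3 in their levels in both libraries, by distance in log2(CPM + 1), were ETS1 (18.5 and 130 CPM, distance 0.30), SELK (27.1 and 158 CPM, 0.32) and CCNG2 (17.5 and 134 CPM, 0.33). Those nearest to PPP1R15A were CYR61 (10.00 and 128 CPM, 0.35), DDIT4 (12.2 and 124 CPM, 0.58) and TUFT1 (10.1 and 101 CPM, 0.66). With 2 libraries this likeness rests on 2 values a gene.

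Flanking genes, looked at after the values were seen, lay within 2-fold where they passed the filter. Next to EIF2AK3 the row BC046476, 253 bases away in the files' coordinates, was at 0.365 and 0.246 CPM, and next to PPP1R15A the gene PLEKHA4, 3765 bases away, at 2.18 and 1.48 CPM, all under the filter. The gene of ATP6V1D, a subunit of the proton pump, lies 314 bases from EIF2S1 in the files' coordinates. ATP6V1D was 1.33-fold higher (1.26 to 1.41), close to the 1.29-fold of EIF2S1. PLEK2, on the other side of EIF2S1, was 1.82-fold higher (1.68 to 1.98). In GENCODE release 29 an antisense gene overlaps EIF2AK3 by 18870 bases and another PPP1R15B by 8405 bases. On the opposite strand, AIMP2 overlaps EIF2AK1 by 1591 bases and ANKRD61, which has no deposited row, by 5011 bases. ATP6V1D overlaps EIF2S1 by 269 bases in that release, also on the opposite strand. The library kit marks strand, but whether the counting used it was not given in the sources used here, so reads from these partners may be included. AIMP2 was at 29.2 and 36.2 CPM, far below EIF2AK1.

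Depth was 29273674 estimated counts in the DMSO library and 31997641 in the other, and a value of 0 allows up to 3 counts, or 0.091 and 0.106 CPM. Epithelial markers were present, with EPCAM at 433 and 501 CPM, KRT18 at 292 and 495 CPM and the E-cadherin gene CDH1 at 66.7 and 243 CPM, while the intestinal markers VIL1, CDX1 and LGALS4 were below that limit in both libraries. The intestinal factor gene CDX2 was at 3.76 and 2.92 CPM and the keratin gene KRT20 at 1.37 and 1.02 CPM, above that limit and under the filter. None of 9 markers of blood, vessel, muscle and stromal cells reached 5 CPM, and their sum was 3.83 and 4.93 CPM. In bulk RNA, a difference in the RNA of each cell and one in which cells were present cannot be told apart.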

How the data were processed

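RNA from 1 DMSO library and 1 CB-5083 library of HCT116 cells was analysed. RSEM 1.2.0 and hg19 are named in the submitters' processing notes. The aligner was not given in the sources used here. Each deposited column holds a signal, estimated counts of genes scaled in each library to a 75th percentile near 1000, as the values show (999.7 and 999.9), although the headers call them counts. Dividing by the value of 1 count (1.079 and 1.175, the commonest low value) gave back estimated counts, 78.2% and 78.5% of those up to 5 whole within 0.02. The design had planned for estimated counts and had allowed for a scaled signal, with counts recovered from it. 1 of 21116 rows held no value and was left out.

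CPM used TMM factors of 1.126 and 0.888 (trims of 30% and 5%). The log2 ratio used a pseudocount of 1 CPM, which understates differences of genes with low values, and folds used none. Intervals are exact at 95%, and the estimated counts were rounded for them. Transcript lengths came from GENCODE release 29 through RefSeq accessions and promoters from RefSeq (GRCh38.p14). Coordinates of genes are those of the files (hg19), counted from 1.

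The members and lists were chosen with earlier results of these data known. Genes named are the 7 members, up to 4 genes of each list by size of ratio, its most expressed gene, fixed genes such as ATF4, and the 3 genes nearest to each member past the threshold. Some genes the rule takes are not described. The scripts were tested on simulated data. Other scalings, pseudocounts, filters, thresholds and transcript lengths were tried. The tools were matplotlib 3.10.9, scipy 1.17.1, pandas 2.3.3 and numpy 2.4.6 under Python 3.11.15.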

Additional observations from a re-analysis of the deposited data

How the results depend on the processing

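EIF2AK3 and PPP1R15A were the 2 members at least 2-fold higher, and none was lower, under all 8 alternatives to the scaling, source of the ratio, pseudocount, filter and threshold. With library totals the log2 ratios were -0.39 for EIF2AK1, 0.23 for EIF2AK2, 2.39 for EIF2AK3, -0.67 for EIF2AK4, 0.0285 for EIF2S1, 3.73 for PPP1R15A and -0.22 for PPP1R15B. With upper quartile scaling they were -0.14 for EIF2AK1, 0.47 for EIF2AK2, -0.43 for EIF2AK4, 0.28 for EIF2S1 and 0.0288 for PPP1R15B, and in the authors' deposited table -0.14 for EIF2AK1, -0.43 for EIF2AK4, 0.28 for EIF2S1 and 0.0292 for PPP1R15B. The other values under these alternatives, and those with median-of-ratios scaling or a pseudocount of 0.1 CPM, moved by less than the counting interval. Of the 87 pathway genes beside the members that passed the filter, 29 were higher and 6 lower. Of the 29, 17 were targets of the integrated stress response. The shares over all genes that passed were 7.22% higher and 4.91% lower. With library totals 19 of the pathway genes were higher and 8 lower. With the longest transcript the shares of the kinases with DMSO and CB-5083 were 66.1% and 48.5% for EIF2AK1, 7.11% and 8.02% for EIF2AK2, 5.94% and 31.0% for EIF2AK3, and 20.8% and 12.5% for EIF2AK4. Depth limits little here, since the lowest member had 276 estimated counts. The single library per treatment is the limit, as the spread between cultures is unknown.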
